A study of Homo sapiens with 3 samples.

Results

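The 10 genes described here encode cyclins and cyclin-dependent kinases (CDKs) of the cell cycle. They are the D-type cyclins CCND1, CCND2 and CCND3, the E-type cyclins CCNE1 and CCNE2, the A-type cyclin CCNA2, the B-type cyclin CCNB1, and the kinases CDK1, CDK2 and CDK4. They were taken by name, and all 10 are among the 23284 gene names of the deposited tables. All 10 had FPKM (read fragments scaled by exon length and by sequencing depth) of at least 1 in every library, as had 12347 genes of the whole table.

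The cells were 293T, a human embryonic kidney line whose adenovirus E1A and SV40 large T proteins both bind the retinoblastoma protein. All 3 groups expressed dCas9-VP64, in which the transcriptional activator VP64 is fused to a Cas9 that has lost its cutting activity. They differed in the guide. The mock group received the guide vector without an insert, and the other groups received sgL1ASP #1 or sgL1ASP #3, which were designed against the antisense promoter of the LINE-1 (L1) retrotransposon. The study asked by this comparison which genes respond to activation of that promoter, with cell cycle genes among those it followed. Each group is 1 library of poly(A) RNA, so the differences below could not be checked against replicates and carry no p-value. Expression was transient, and the share of cells that took up the plasmids is not given in the sources used here. In whole cultures, a smaller number of cells of a kind cannot be told apart from less RNA per cell. The FPKM values sum to 619903 (mock), 661449 (sgL1ASP #1) and 673483 (sgL1ASP #3). The spacing of the lowest values puts the depth at about 10400000 reads (mock), 10300000 reads (sgL1ASP #1) and 8700000 reads (sgL1ASP #3).

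Genes with which 293T cells are commonly described were present. VIM, an intermediate filament gene, had FPKM 807 (mock), 904 (sgL1ASP #1) and 862 (sgL1ASP #3). KRT8, KRT18, NEFL, NEFM and CDH2 were between 5.77 and 73.2 in all libraries, and LHX1 was between 1.48 and 1.76, while the kidney factors PAX2 and PAX8 were at most 0.658. The blood cell genes PTPRC, CD3E, LYZ and HBB were listed at 0 in all libraries. The 3 hepatocyte markers summed to 5.85, 3.64 and 4.16 in the order mock, sgL1ASP #1, sgL1ASP #3, mostly from APOA1, with TTR at 0. The 3 fibroblast markers summed to 3.01, 2.28 and 2.61, mostly from COL1A1, with DCN at 0. The 3 endothelial markers summed to at most 0.281.

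A CDK is inactive until a cyclin binds it, and the order in which cyclins appear and are destroyed gives the cell cycle its direction. D-type cyclins with CDK4 act early in G1 by phosphorylating the retinoblastoma protein, which frees E2F transcription factors. E-type cyclins with CDK2 then drive entry into S phase, cyclin A acts through S phase and G2 with CDK2 and later CDK1, and cyclin B with CDK1 drives mitosis. The mRNAs of the E-type cyclins are E2F targets that peak near the start of S phase, and those of CCNA2, CCNB1 and CDK1 peak in G2. In an unsynchronised culture each level is an average over all phases.

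The promoters of the S- and G2-phase genes are known for short shared elements, so several stretches that hold such elements are shown for CDK1, CCNB1 and CCNA2. RefSeq promoter windows (build GRCh38.p14, from 250 bases before to 50 bases after a transcription start) were matched for 6 of the 10 genes, namely CCND3, CCNE1, CCNA2, CCNB1, CDK1 and CDK4, with 9 windows in all. CCND1, CCND2, CCNE2 and CDK2 were not matched. Capitals mark the letters CCAAT, the CHR letters TTTGAA, or the E2F letters TTTCGCGC, on either strand (ATTGG is CCAAT read on the other strand). The lines run 5′ to 3′ on the strand of the gene.
CDK1, chr10:60778339-60778368, plus strand: tttcctctttcTTTCGCGCtctagccaccc
CDK1, chr10:60778393-60778421, plus strand: ggctctgATTGGctgcTTTGAAagtctac
CDK1, chr10:60778420-60778448, plus strand: acgggctacccgATTGGtgaatccggggc
CDK1, chr10:60778453-60778477, plus strand: tagcgcggtgagTTTGAAactgctc
CCNB1, chr5:69167051-69167079, plus strand: gaccggcagccgCCAATgggaagggagtg
CCNB1, chr5:69167083-69167111, plus strand: gccacgaacaggCCAATaaggagggagca
CCNA2, chr4:121823923-121823951, minus strand: gcgagcgctttcATTGGtccatttcaata

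CDK1 carried all 3 kinds of letters before the second of its annotated starts, with the E2F letters at position -128, CCAAT at -78 and -46, and the CHR letters at -69 and -13. The window of its first start, which overlaps that of the second, also held all 3 kinds, with the same E2F letters at position 20. CCNB1 carried CCAAT at -87 and -55, and CCNA2 carried it at -56. CCAAT was found in 6 of the 9 windows, which belong to 4 of the 6 matched genes (CDK1, CCNB1, CCNA2 and CCND3), and in 34.6% of all 35116 windows. The CHR search (TTTGAA or TTCGAA) matched 2 of the 9 windows, both of CDK1, and 16.4% of all windows. The E2F search (TTTCGCGC, TTTGGCGC or TTTCCCGC) also matched both CDK1 windows, at a single site that they share, against 2.74% of all windows. No letters of these 3 searches were found in the windows of CCNE1 and CDK4. Other spellings of these elements were not searched, so a window without a match may still hold one.

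The 10 mRNAs spanned a wide range of levels. CDK4 was the most abundant with a mean FPKM of 192, above 96.9% of the 12830 genes with mean FPKM of at least 1. CDK1 and CDK2 followed with means of 67.1 and 66.9, and their ranges over the 3 libraries overlapped. CCNB1 (59.6), CCNA2 (36.3) and CCND3 (25.6) came next, each with a range apart from its neighbours. CCNE1 and CCND2 had means of 15.8 and 15.3, and CCNE2 and CCND1 had means of 7.83 and 7.40, with overlapping ranges within each of these pairs. CCND1 thus lay above only 35.4% of the same genes. These are levels in FPKM, which are per length and can be set side by side between genes.

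**Figure D1:**
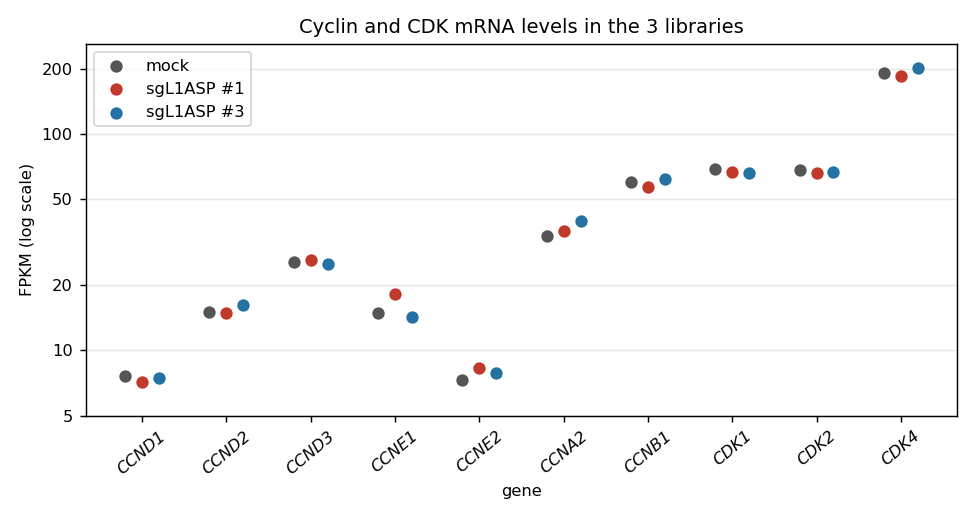
FPKM (log axis) of the 10 cyclin and CDK genes, with 1 point for each of the mock, sgL1ASP #1 and sgL1ASP #3 libraries. The 3 points of a gene lie close together beside the distance between genes, from about 7 for CCND1 to about 200 for CDK4, and CCNE1 shows the widest gap, with sgL1ASP #1 on top.

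Across all genes the libraries were close to each other. Changes are given as differences of log2(FPKM + 0.1). A counting interval stands for the 95% interval that follows from the estimated number of reads alone. It covers neither culture nor library preparation. The study listed genes upregulated by more than 1.5-fold for sgL1ASP #1 against sgL1ASP #3 and for sgL1ASP #3 against mock. Here the same fold was taken in either direction and in each comparison. None of the 10 genes (0 of 10) differed by more than 1.5-fold between any of the libraries. Of all 12830 genes, 3.55% did so in either direction between sgL1ASP #1 and mock, 3.80% between sgL1ASP #3 and mock and 3.77% between sgL1ASP #1 and sgL1ASP #3. A smaller limit of 1.2-fold was passed by 1 of the 10, CCNE1. It was higher in sgL1ASP #1 than in mock, as were 6.93% of all genes, though not when each library was scaled to the same FPKM sum (0.21 on the log2 scale, with 0 of the 10 past the limit). It was also higher in sgL1ASP #1 than in sgL1ASP #3, as were 7.45%. In the other direction 0 of the 10 passed this limit, against 7.51% and 7.25% of all genes. Between sgL1ASP #3 and mock 0 of the 10 passed it upward and 0 downward, against 7.08% and 7.71% of all genes. These comparisons share libraries and are not independent of each other.

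The median log2 change of the 10 genes was -0.028 with sgL1ASP #1 (4 higher, 6 lower), against 0.00085 for all genes. With sgL1ASP #3 it was 0.014 (5 higher, 5 lower), against 0.0015 for all genes. Between sgL1ASP #1 and sgL1ASP #3 it was -0.032 (4 higher, 6 lower), against -0.0027. The counting interval left out 0 for CCNE1 with sgL1ASP #1, where this was so for 16.7% of the 10922 of these genes that had a transcript length and were above 0 in every library. With sgL1ASP #3 it left out 0 for CCNA2 and CDK4, against 15.3% of those genes. Between sgL1ASP #1 and sgL1ASP #3 it did so for CCNE1, CCNA2, CCNB1 and CDK4, that is 4 of 10, against 14.5%. These intervals are on the deposited scale and were not recomputed for libraries scaled to the same FPKM sum. With that scaling the differences between the guides were 0.39 for CCNE1, -0.11 for CCNA2, -0.11 for CCNB1 and -0.10 for CDK4. Intervals of unchanged width around these values would include 0 for CCNA2 and CCNB1, but not for CCNE1 and CDK4. Against mock, the scaled changes were 0.21 for CCNE1 with sgL1ASP #1, and 0.10 for CCNA2 and -0.05 for CDK4 with sgL1ASP #3. Intervals of unchanged width would include 0 for all of them.

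**Figure D2:**
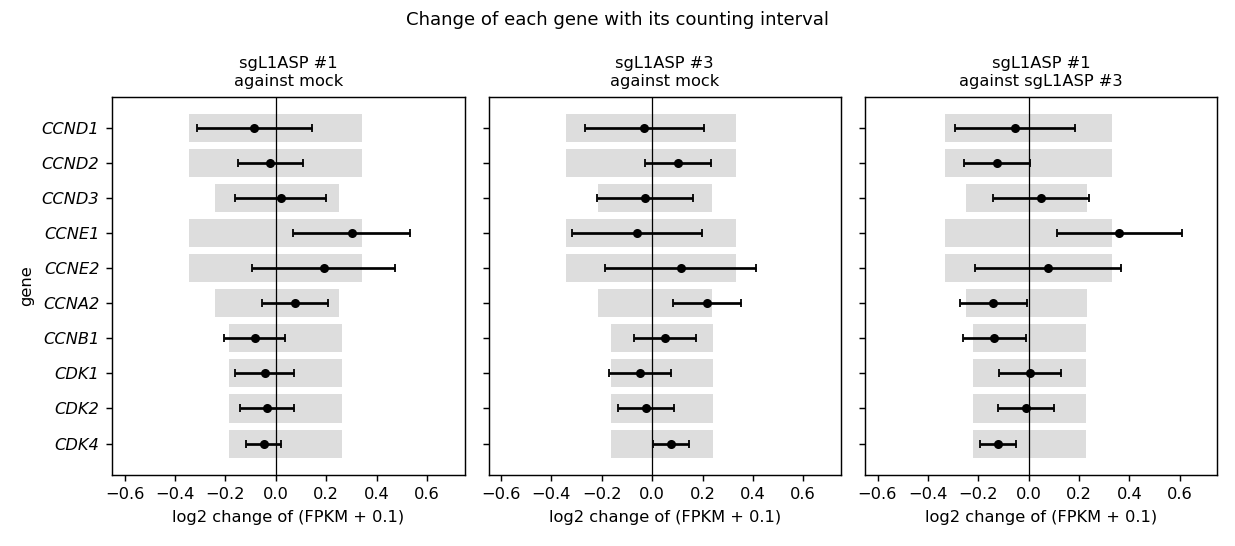
Log2 change of (FPKM + 0.1) of each gene in the 3 comparisons, as points with 95% counting intervals. Grey bars give the middle 95% of all genes of the same class of mean FPKM (5 to 20, 20 to 50 or 50 to 250). The points lie inside the grey bars, except CCNE1 between sgL1ASP #1 and sgL1ASP #3 (0.36).

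The D-type cyclins bind CDK4 and CDK6 in response to growth signals. CCND1 lies on chromosome 11 from 69455924 to 69469242 (GRCh37, the sequence of hg19, GENCODE 44). It had FPKM 7.60 (mock), 7.16 (sgL1ASP #1) and 7.43 (sgL1ASP #3). CCND2 (chromosome 12, 4378937 to 4414519) had FPKM 15.04, 14.8 and 16.2 in the same order. CCND3 (chromosome 6, 41902672 to 42018095) had FPKM 25.7, 26.0 and 25.2. CCND3 was thus the main D-type cyclin mRNA, and the order CCND3, CCND2, CCND1 was the same in each library. CCND3 made up 53.1% (mock), 54.2% (sgL1ASP #1) and 51.6% (sgL1ASP #3) of the summed D-type FPKM. CCND1, the D-type cyclin best known from tumours with extra gene copies, made up 15.7%, 14.9% and 15.2%. The sum itself was 48.3, 48.0 and 48.8.

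CCND2 differed between the guides by -0.12 (counting interval -0.26 to 0.0069). CCND1 differed from mock by -0.09 with sgL1ASP #1 (-0.31 to 0.14) and by -0.03 with sgL1ASP #3 (-0.27 to 0.20). CCND3 differed by 0.02 (-0.16 to 0.20) and -0.03 (-0.22 to 0.16). Scaled to the same FPKM sum, the changes with sgL1ASP #1 and sgL1ASP #3 were -0.18 and -0.15 for CCND1, -0.12 and -0.02 for CCND2, and -0.07 and -0.15 for CCND3. All D-type cyclins were then below mock, as was the median of all genes (-0.092 and -0.12). On the deposited scale all D-type intervals include 0. About 320 reads covered CCND1 in mock and about 490 covered CCND3.

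CDK4, the kinase partner of the D-type cyclins (chromosome 12, 58141510 to 58149796), had FPKM 191 (mock), 185 (sgL1ASP #1) and 201 (sgL1ASP #3). It was lowest in sgL1ASP #1 and highest in sgL1ASP #3. The log2 change was -0.05 with sgL1ASP #1 (-0.12 to 0.02) and 0.07 with sgL1ASP #3 (0.0016 to 0.15). Scaled to the same FPKM sum, CDK4 was highest in mock, with changes of -0.14 and -0.05, where all genes had medians of -0.092 and -0.12. On the deposited scale the log2 change of CDK4 between the guides was -0.12 (-0.19 to -0.05), which is a difference of -8.12%. Among genes with mean FPKM from 50 to 250, the middle 95% of changes between the guides ran from -0.22 to 0.23. CDK4 FPKM was 7.44 times that of CCND3 (mock), 7.09 times (sgL1ASP #1) and 7.98 times (sgL1ASP #3). CDK6, the other kinase of the D-type cyclins, which was named after its values were seen, had FPKM 6.17, 6.36 and 6.51. In GENCODE 44, exons of TSPAN31 overlap CDK4 on the opposite strand, as do those of INTS8 for CCNE2, EXOSC9 for CCNA2 and PMEL for CDK2, and the study's FPKM were calculated with strand. CCND2 overlaps exons of a protein-coding gene on its own strand (ENSG00000285901), which is not among the names of the tables, so that reads of the overlap cannot be told apart.

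The E-type cyclins activate CDK2 at the start of S phase, and they held the widest difference among the 10 genes. CCNE1 (chromosome 19, 30302898 to 30315219) had FPKM 14.8 (mock), 18.3 (sgL1ASP #1) and 14.2 (sgL1ASP #3). It was high in sgL1ASP #1 alone, and mock and sgL1ASP #3 lay close together. The log2 change with sgL1ASP #1 was 0.30 (counting interval 0.07 to 0.53), an increase of 23.4%, from about 270 reads in mock to about 330. With sgL1ASP #3 it was -0.06 (-0.32 to 0.20). Between sgL1ASP #1 and sgL1ASP #3 it was 0.36 (0.11 to 0.61). Scaled to the same FPKM sum, these changes were 0.21, -0.18 and 0.39, so that the change with sgL1ASP #1 was below 1.2-fold. Among genes with mean FPKM from 5 to 20, the middle 95% of changes ran from -0.34 to 0.34 for sgL1ASP #1 against mock and from -0.33 to 0.33 between the guides. The change of CCNE1 was larger than that of 88.3% of all genes for sgL1ASP #1 against mock, and of 91.0% between the guides.

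CCNE2, the second E-type cyclin, lies on chromosome 8. It had FPKM 7.29 (mock), 8.32 (sgL1ASP #1) and 7.89 (sgL1ASP #3), so that both guide libraries lay above mock. The log2 change was 0.19 with sgL1ASP #1 (-0.09 to 0.47) and 0.11 with sgL1ASP #3 (-0.19 to 0.41). Scaled to the same FPKM sum, it was 0.10 and -0.0050. With about 190 reads in mock it was the gene with the fewest reads, and both intervals include 0. Summed FPKM of CCNE1 and CCNE2 was 22.1 (mock), 26.6 (sgL1ASP #1) and 22.1 (sgL1ASP #3). CCNE1 made up 67.1%, 68.7% and 64.3% of it.

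CDK2 (chromosome 12, 56360565 to 56366573), the partner of the E- and A-type cyclins, had FPKM 67.8 (mock), 66.2 (sgL1ASP #1) and 66.6 (sgL1ASP #3). The 3 libraries lay close together. The log2 change was -0.03 with sgL1ASP #1 (-0.14 to 0.07) and -0.02 with sgL1ASP #3 (-0.14 to 0.09). Scaled to the same FPKM sum, it was -0.13 and -0.14, against medians of -0.092 and -0.12 for all genes. CDK2 FPKM was 4.57 times that of CCNE1 (mock), 3.62 times (sgL1ASP #1) and 4.69 times (sgL1ASP #3).

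Cyclin A2 is the only A-type cyclin of most dividing somatic cells. CCNA2 (chromosome 4, 122737599 to 122745038) had FPKM 33.9 (mock), 35.7 (sgL1ASP #1) and 39.4 (sgL1ASP #3). It was lowest in mock and highest in sgL1ASP #3, with a log2 change of 0.08 with sgL1ASP #1 (-0.06 to 0.21) and 0.22 with sgL1ASP #3 (0.08 to 0.35), an increase of 16.2%. Scaled to the same FPKM sum, CCNA2 was lowest in sgL1ASP #1, with changes of -0.02 and 0.10. Among genes with mean FPKM from 20 to 50, the middle 95% of changes with sgL1ASP #3 ran from -0.22 to 0.24. CCNA2 had about 900 reads in mock.

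CCNB1 (chromosome 5, 68462962 to 68474072), the mitotic cyclin, had FPKM 60.0 (mock), 56.6 (sgL1ASP #1) and 62.2 (sgL1ASP #3). It was lowest in sgL1ASP #1, and mock lay between the guides. The log2 change was -0.08 with sgL1ASP #1 (-0.20 to 0.04), 0.05 with sgL1ASP #3 (-0.07 to 0.17) and -0.14 between the guides (-0.26 to -0.01). CCNB1 FPKM was 1.77 times that of CCNA2 (mock), 1.58 times (sgL1ASP #1) and 1.58 times (sgL1ASP #3). CDK1 (chromosome 10, 62538089 to 62554610), the mitotic kinase, had FPKM 68.5, 66.4 and 66.2 in the order mock, sgL1ASP #1, sgL1ASP #3. Its log2 change was -0.04 with sgL1ASP #1 (-0.16 to 0.07), -0.05 with sgL1ASP #3 (-0.17 to 0.07) and 0.0042 between the guides (-0.12 to 0.13). CDK1 and CDK2 stood at nearly equal FPKM, with a ratio of 1.01 (mock), 1.00 (sgL1ASP #1) and 0.994 (sgL1ASP #3). The genes with the promoter letters shown above did not share a direction, since CCNA2 was higher than mock in both guide libraries, CDK1 was lower in both, and CCNB1 was lower in sgL1ASP #1 and higher in sgL1ASP #3. When each library was scaled to the same FPKM sum, CDK1 remained lower than mock in both guide libraries, CCNB1 was lower in both, and CCNA2 was lower in sgL1ASP #1 (-0.02) and higher in sgL1ASP #3 (0.10). The median of all genes was then also below mock (-0.092 and -0.12).

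CCNE1 varied most over the 3 libraries, with a range of 0.36 on the log2 scale. Among 7230 other genes with mean FPKM of at least 10, the profiles nearest to it were those of GBE1 (Euclidean distance 0.015 on the centred log2 scale), SPAG16 (0.018) and C3orf23 (0.020). GBE1 had FPKM 9.45 (mock), 11.8 (sgL1ASP #1) and 9.19 (sgL1ASP #3). A profile over 3 libraries is easily matched, and 69 genes lay within 0.1 of CCNE1.

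**Figure D3:**
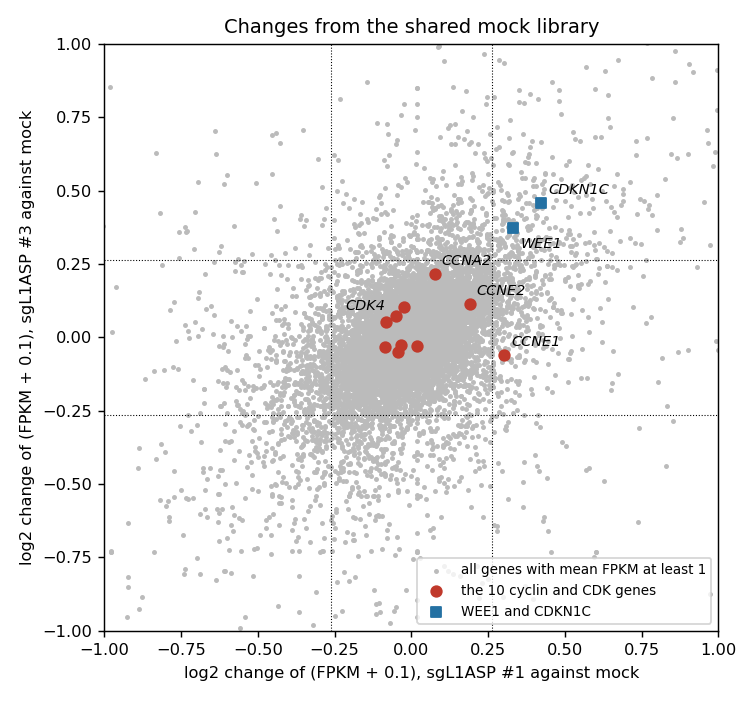
Log2 change of (FPKM + 0.1) from mock with sgL1ASP #1 (horizontal axis) and with sgL1ASP #3 (vertical axis), which share the mock library. Grey points are the genes with mean FPKM of at least 1, of which 292 lie outside the axes, red points are the 10 cyclin and CDK genes, blue squares are WEE1 and CDKN1C, and dotted lines mark 1.2-fold. CCNE1 lies past the dotted line of sgL1ASP #1, while WEE1 (0.33 and 0.37) and CDKN1C (0.42 and 0.46) lie past both.

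The genes around the cyclin-CDK pairs were followed in lists. Of 10 genes for CDK activation and the inhibitory tyrosine phosphorylation of CDKs, WEE1 was more than 1.2-fold higher than mock with both guides, where 2.99% of all genes were higher and 2.99% lower with both. WEE1 is the kinase that holds CDK1 inactive until the cell is ready for mitosis. It had FPKM 18.3 (mock), 23.0 (sgL1ASP #1) and 23.7 (sgL1ASP #3). Both guide libraries lay above mock. The log2 change was 0.33 with sgL1ASP #1 (counting interval 0.18 to 0.48) and 0.37 with sgL1ASP #3 (0.22 to 0.53), from about 650 reads in mock. When each library was scaled to the same FPKM sum, both changes were below the 1.2-fold limit, at 0.24 and 0.25. The list as a whole had a median of 0.0094 with sgL1ASP #1 and -0.063 with sgL1ASP #3. CDK7, the catalytic subunit of the CDK-activating kinase, was named after its values were seen. It was more than 1.2-fold lower with sgL1ASP #3, as were 7.71% of all genes. It had FPKM 16.0, 13.3 and 13.03, with counting intervals that include 0 (-0.56 to 0.03 with sgL1ASP #1 and -0.60 to 0.02 with sgL1ASP #3). CKS2, a small subunit of CDK complexes and the most abundant gene of the list, had FPKM 119, 125 and 123.

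All 8 CDK inhibitor genes had mean FPKM of at least 1. CDKN1C, which encodes the inhibitor p57, was more than 1.2-fold higher than mock with both guides, as were 2.99% of all genes. It had FPKM 5.87 (mock), 7.90 (sgL1ASP #1) and 8.11 (sgL1ASP #3). The log2 change was 0.42 (0.04 to 0.80) and 0.46 (0.07 to 0.85), from about 96 reads in mock. CDKN2A, the most abundant inhibitor gene, had FPKM 128, 129 and 141. On the deposited scale, 0 of the other 7 inhibitor genes were more than 1.2-fold from mock with either guide, where 6.93% to 7.71% of all genes were so in each direction. The median of the 8 was 0.038 with sgL1ASP #1 and 0.097 with sgL1ASP #3. Scaled to the same FPKM sum, this median turned to -0.056 and -0.022, while that of all genes was -0.092 and -0.12.

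Of 17 other cyclin genes, 15 had mean FPKM of at least 1, and 2 of these were more than 1.2-fold higher than mock with both guides, against 2.99% of all genes. They are CCNO (FPKM 2.33, 3.31 and 4.02), which acts in cells with many cilia, and CCNB3 (0.860, 1.16 and 1.61), a germ cell cyclin. CCNB3 was below 1 in mock and met the filter only through the guide libraries. Its place among the higher genes is therefore not independent of the filter. CCNO had about 28 reads in mock and CCNB3 about 40, and with sgL1ASP #1 the counting intervals of both include 0. With sgL1ASP #3 both were more than 1.5-fold higher than mock, with log2 changes of 0.76 (0.07 to 1.45) for CCNO and 0.83 (0.26 to 1.40) for CCNB3, where 3.80% of all genes passed this limit in either direction. The most abundant was CCNL2, a cyclin of the splicing machinery, with FPKM 248, 260 and 250. Of 16 other CDK genes with mean FPKM of at least 1, 0 passed 1.2-fold with sgL1ASP #1, and 2 were higher (CDK19 and CDK20) and 1 lower (CDK3) with sgL1ASP #3, where 7.08% of all genes were higher and 7.71% lower. CDK16 was the most abundant, with FPKM 137, 136 and 144.

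On the deposited scale, none of the 19 genes of the retinoblastoma, E2F and DREAM group (0 of 19) passed 1.2-fold with either guide. Of all genes, 6.93% were higher and 7.51% lower with sgL1ASP #1, and 7.08% higher and 7.71% lower with sgL1ASP #3. DREAM is a complex that represses cell cycle genes in resting cells. The medians were 0.0017 with sgL1ASP #1 and 0.026 with sgL1ASP #3, and MYBL2, an E2F target and activator of G2 genes, was the most abundant (FPKM 167, 164 and 168). The 20 G1/S genes, targets of E2F, had medians of 0.025 and -0.00019 and the 22 G2/M genes had medians of -0.0046 and -0.015, with 0 genes past 1.2-fold against mock in either list, beside the same shares of all genes. PCNA, the sliding clamp of DNA replication, had FPKM 278, 271 and 261, and PTTG1, the inhibitor of separase, had 90.8, 86.3 and 100.4. Among 26 genes of cyclin degradation, 1 was more than 1.2-fold higher with sgL1ASP #1 (FBXO4) and 1 was lower with sgL1ASP #3 (ANAPC1), against 6.93% and 7.71% of all genes. UBE2C, the ubiquitin-conjugating enzyme of the anaphase-promoting complex, was the most abundant with FPKM 132, 141 and 139.

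Of 10 mitogen response genes that act upstream of the D-type cyclins, 7 had mean FPKM of at least 1, of which 0 passed 1.2-fold with sgL1ASP #1 and 1 was higher with sgL1ASP #3 (FOS), against 7.08% of all genes. JUND was the most abundant, with FPKM 104.4, 109.6 and 109.6. Of 9 stress and interferon genes, 5 had mean FPKM of at least 1, and 1 was more than 1.2-fold higher with sgL1ASP #1 (GADD45B) and 1 with sgL1ASP #3 (ISG15), against 6.93% and 7.08% of all genes. These genes with a single guide were named after their values were seen. The median of the 5 was 0.13 with sgL1ASP #1 (5 higher, 0 lower), where 50.3% of all genes were higher. With sgL1ASP #3 it was 0.10 (4 higher, 1 lower), where 50.4% of all genes were higher. Scaled to the same FPKM sum, the median of the 5 was 0.04 and -0.02, against -0.092 and -0.12 for all genes. The most abundant of the 5, DDIT3, had FPKM 139.6, 153.5 and 149.5. The 5 reference genes had medians of 0.049 and 0.038. GAPDH had FPKM 2110, 2327 and 2311, higher than mock by 0.14 and 0.13 on the log2 scale, and HPRT1 had 113, 117 and 116, higher by 0.05 and 0.04. When each library was scaled to the same FPKM sum, GAPDH stayed above mock by 0.05 and 0.01, while HPRT1 turned to -0.04 and -0.08. All genes had medians of -0.092 and -0.12 under this scaling.

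**Figure D4:**
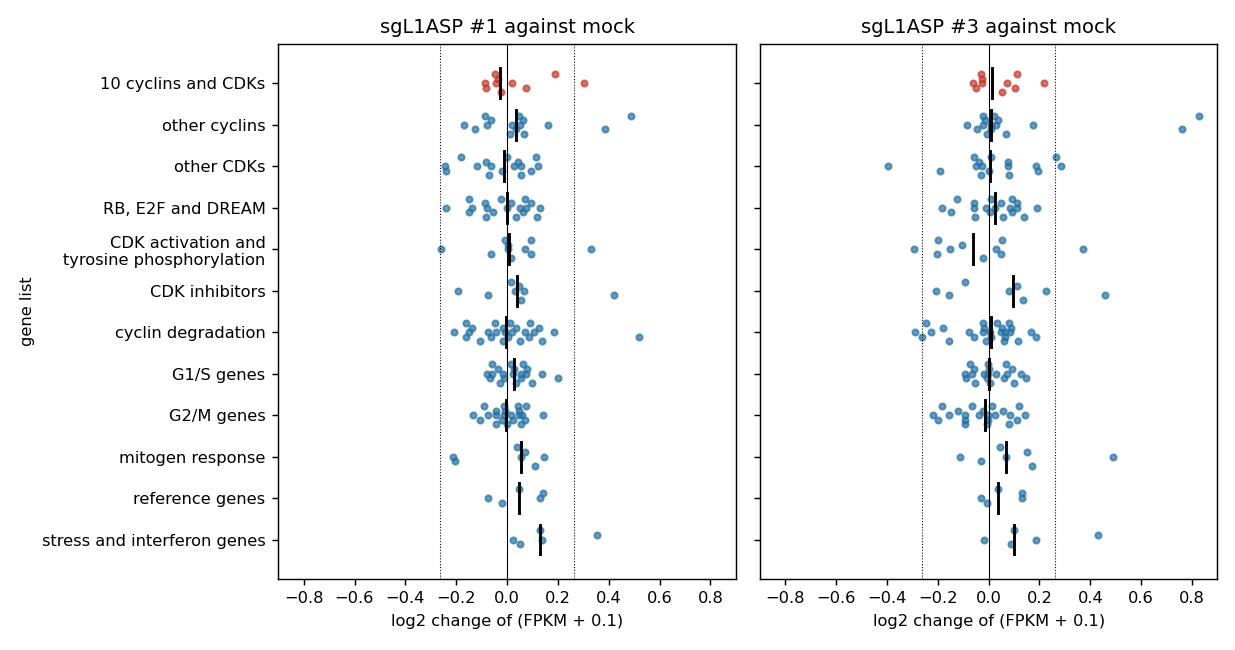
Log2 change of (FPKM + 0.1) from mock with sgL1ASP #1 (left) and sgL1ASP #3 (right) for the genes with mean FPKM of at least 1 in each list, with 1 point per gene, a black bar at the list's median and dotted lines at 1.2-fold. The list medians lie between -0.063 and 0.13, and the few points past the dotted lines include WEE1, CDKN1C, CCNO and CCNB3 on both sides.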

How the data were processed

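RNA-seq of 293T cells was analysed in 3 libraries, 1 per condition, each assigned from its title. The authors made stranded mRNA libraries, read them in 75-base single-end mode, aligned them with TopHat2 2.0.13, Bowtie2 2.2.3 and SAMtools 0.1.19 to hg19, and deposited FPKM per gene from Cufflinks 2.2.1 (Cuffdiff) in strand-specific mode. The annotation and the scaling between libraries are not given in the sources used here. The deposited FPKM were used as they are.

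Log2 changes used a pseudocount of 0.1, and lists used genes with mean FPKM of at least 1. Reads per gene were estimated as FPKM times depth times the length of the canonical GENCODE 44 transcript less a 200-base fragment. Depth came from the most common value of a single read among genes with 1 transcript longer than 1000 bases, which numbered 955 (mock), 1001 (sgL1ASP #1) and 954 (sgL1ASP #3), with 26, 45 and 34 genes at the peak. Counting intervals cover counting error only. The 10 genes, the lists and the limits were chosen with earlier results of these data known. The genes named are the 10, HPRT1 and GAPDH, the most abundant gene of each list, those past 1.2-fold with both guides (at most 3 a list), the 3 profiles nearest to the most variable gene, and the cell markers, of which some are not reported here. CDK6, CDK7 and the genes past 1.2-fold with a single guide were added after their values were seen. The alternatives were no pseudocount, a pseudocount of 1, scaling to an FPKM sum of 1000000 or to the median ratio, and other filters for the shares of all genes. The depth estimate and the fold limits were tested on simulated data. Python 3.11.15, NumPy 2.4.6, pandas 2.3.3 and matplotlib 3.10.9 were used. Protein sequences and guide sequences were not used here.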

Additional observations from a re-analysis of the deposited data

Results flagged for a closer look

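Of the 10 genes, 3 lay on opposite sides of mock with the 2 guides and differed between the guides by more than their counting interval, as did 9.59% of 10922 genes. The log2 change of sgL1ASP #1 against sgL1ASP #3 was 0.36 for CCNE1, -0.14 for CCNB1 and -0.12 for CDK4. For CCNB1 and CDK4, neither change from mock reached 0.1 in size. When each library was scaled to the same FPKM sum, CCNB1 (-0.18 and -0.07) and CDK4 (-0.14 and -0.05) were below mock with both guides, and only CCNE1 of these 3 (0.21 and -0.18) kept opposite sides. The median of all genes was then also below mock with both guides (-0.092 and -0.12). With 1 library per condition the difference between the guides was not tested against replicate error.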

How the results depend on the processing

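Without a pseudocount, with a pseudocount of 1 and with scaling to the median ratio, the 10 genes kept their counts past 1.2-fold and 1.5-fold, and their medians moved by less than 0.05. Scaling each library to an FPKM sum of 1000000 moved the median of all genes to -0.092 with sgL1ASP #1 and -0.12 with sgL1ASP #3. The median of the 10 genes moved with it, to -0.12 with sgL1ASP #1 (from -0.028) and to -0.11 with sgL1ASP #3 (from 0.014), which is -0.030 and 0.011 relative to all genes. Under this scaling 2 of the 10 were higher than mock with sgL1ASP #1 and 1 with sgL1ASP #3. The median of all genes was itself below mock with both guides, and the share of all genes that were higher was not counted. CCNE1 was at 0.21 with sgL1ASP #1, so that 0 of the 10 passed 1.2-fold, and at 0.39 between the guides. CCNA2 was at -0.02 and 0.10, CDK4 at -0.14 and -0.05, and CCNE2 at 0.10 and -0.0050 with sgL1ASP #1 and sgL1ASP #3. CDKN1C stayed past 1.2-fold at 0.33 and 0.34. The medians of the 11 lists ran from -0.10 to 0.04 with sgL1ASP #1 and from -0.18 to -0.02 with sgL1ASP #3. Counts past 1.2-fold in these lists were made on the deposited scale and were not repeated under this scaling. It lowers both guide libraries against mock, so list members near the limit can cross it. The shares of all genes past a limit depended on low values. With sgL1ASP #1 the share past 1.2-fold was 14.4% in either direction and 23.2% when all genes above 0 in both libraries were counted, and with sgL1ASP #3 it went from 14.8% to 20.7% when scaled to the same FPKM sum. The share past 1.5-fold with sgL1ASP #1 was 7.83% when all genes above 0 in both libraries were counted and 1.87% with FPKM of at least 1 in every library. Depth limits CCNE2, CCND1 and CCNE1 most. No paired analysis was possible because only 1 library was made per condition.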
